A study of Sus scrofa with 2 samples.

Results

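The genes described here encode albumin, its relatives and the plasma proteins that carry hormones and vitamins: ALB, AFP, GC, TTR, SERPINA7, SERPINA6, RBP4, VTN and A1BG. They were taken from the deposited table by gene symbol, or by the protein named in the product column where the symbol was a LOC number. All 9 were found, among 21419 genes. The study sequenced RNA of brain and liver from the Rongchang pig, a breed of China, with 1 library per tissue. Depth was 23796843 counts for brain and 31724498 for liver. Age, sex, brain region and treatment are not in the labels, nor is it given there if 1 animal provided both samples. Both library titles carry the same lane and barcode designation. With 1 library per tissue no difference has a replicate check or a p-value, and every interval covers counting error only. In whole tissue, fewer cells of a type and less RNA per cell cannot be told apart.

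Albumin, made by hepatocytes, carries fatty acids, bilirubin and a part of most lipophilic hormones in blood. Alpha-fetoprotein (AFP), afamin (AFM) and the vitamin D binding protein (GC) belong to the same gene family, and AFP is the form typical of fetal liver. Thyroid hormone circulates on thyroxine-binding globulin (SERPINA7), transthyretin (TTR) and albumin. Transthyretin also binds RBP4, which carries retinol from liver stores, and is known as an abundant product of the choroid plexus in brain. SERPINA6 encodes corticosteroid-binding globulin, the carrier of cortisol. Vitronectin (VTN) is an adhesive glycoprotein of plasma and matrix, and A1BG encodes a plasma glycoprotein of the immunoglobulin superfamily.

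The tissue labels were checked on marker genes that are not carriers. All 14 neuron and glia genes passed 4-fold toward brain, meaning a log2 ratio of at least 2 in that direction, with a summed level of 9761 CPM there against 50.5 in liver. STMN2, a microtubule regulator of neurons, led with 71119 brain and 10 liver counts. CPM are counts per 1000000 after TMM scaling, which corrects for library composition. All 7 other hepatocyte genes passed 4-fold toward liver, with a summed level of 15137 CPM there against 4.67 in brain. CPS1, of the urea cycle, had 103570 liver and 49 brain counts. Over all genes that reached 1 CPM in either library, 14.6% passed 4-fold toward brain and 11.3% toward liver.

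Every carrier gene was higher in the liver library. All 9 passed the filter of 1 CPM in at least 1 library, and all 9 passed 4-fold toward liver, against a background of 11.3% of the 15561 genes that passed. The median log2 ratio of brain over liver, on CPM with a pseudocount of 1, was -10.05, beside 0.02 over all genes that passed. Together the 9 genes took 21.7% of liver counts (Wilson 95% interval 21.66 to 21.69) and 0.0203% of brain counts (0.0197 to 0.0208). ALB made up 86.8% of the carrier reads in liver. In brain the largest parts were RBP4, with 62.5% of the carrier reads, and ALB, with 32.4%. Shares of reads were not corrected for transcript length, so their order is one of reads and not of molecules.

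**Figure D1:**
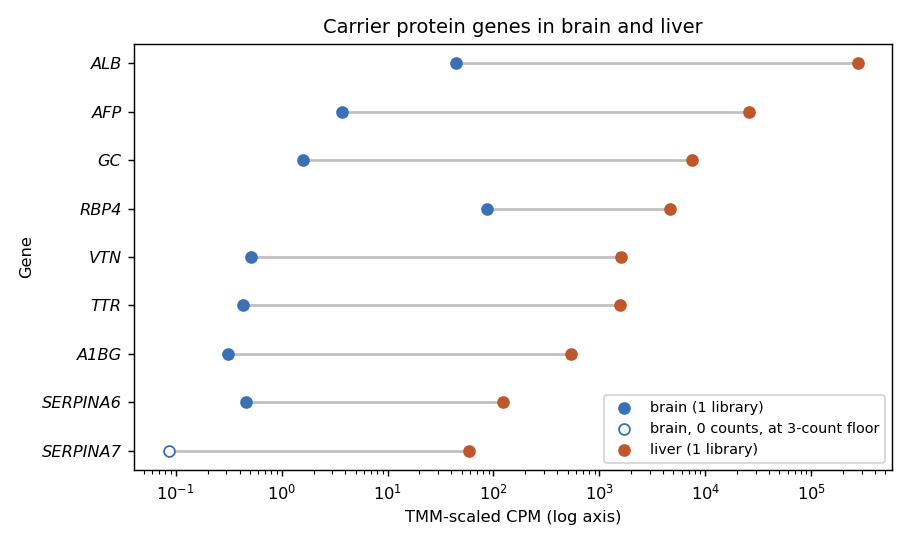
TMM-scaled CPM (log axis) of the 9 carrier genes in the brain and the liver library, 1 point per library, sorted by liver level. Every liver point lies to the right of its brain point. SERPINA7 had 0 brain counts and is drawn at the floor of 3 counts, 0.0859 CPM.

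In the albumin family, ALB was the most abundant gene of the liver library with 5966654 counts, or 276140 CPM. Its share was 18.81% of liver counts (Wilson 95% interval 18.79 to 18.82). The brain library held 1563 ALB counts, or 44.7 CPM, and the gene was 6173-fold higher in liver (5874 to 6491). AFP ranked 4 in liver with 562903 counts, 1.77% of the library (1.770 to 1.779), against 131 in brain. Its difference was 6948-fold (5855 to 8310), an interval that overlaps that of ALB. AFP was the only carrier with 2 rows in the table, and the lesser one, named as alpha-fetoprotein-like, held 287 liver counts and 1 brain count.

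GC, the vitamin D carrier, had 162547 liver counts and ranked 15 there, with a share of 0.512% (0.510 to 0.515). Brain held 55 GC counts, a 4779-fold difference (3671 to 6344). AFM, the remaining albumin relative and not one of the 9, had 55207 liver counts and 10 in brain, a difference of 8927-fold (4854 to 18617). All 4 genes of the family held some brain reads, from 10 for AFM to 1563 for ALB.

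These genes stand near each other in the pig genome, and in this stretch the table's gene numbers follow the genome. In 16 consecutive rows, from 3 before GC to 3 after AFM, the 11 that could be matched to the RefSeq assembly Sscrofa11.1 stood in the same order there. ALB, the alpha-fetoprotein-like row, AFP and AFM are consecutive, and 5 rows lie between GC and ALB. Those 5 did not share the pattern of the family. ANKRD17, an ankyrin repeat gene next to ALB, had 7285 brain and 1914 liver counts (log2 ratio 1.23). ADAMTS3, a procollagen-processing protease, had 591 and 87 (1.83), and NPFFR2, a neuropeptide receptor next to GC, had 24 and 29 (-0.47). The row after AFM, matched to RASSF6, had 7 brain and 92 liver counts (-2.13).

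**Figure D2:**
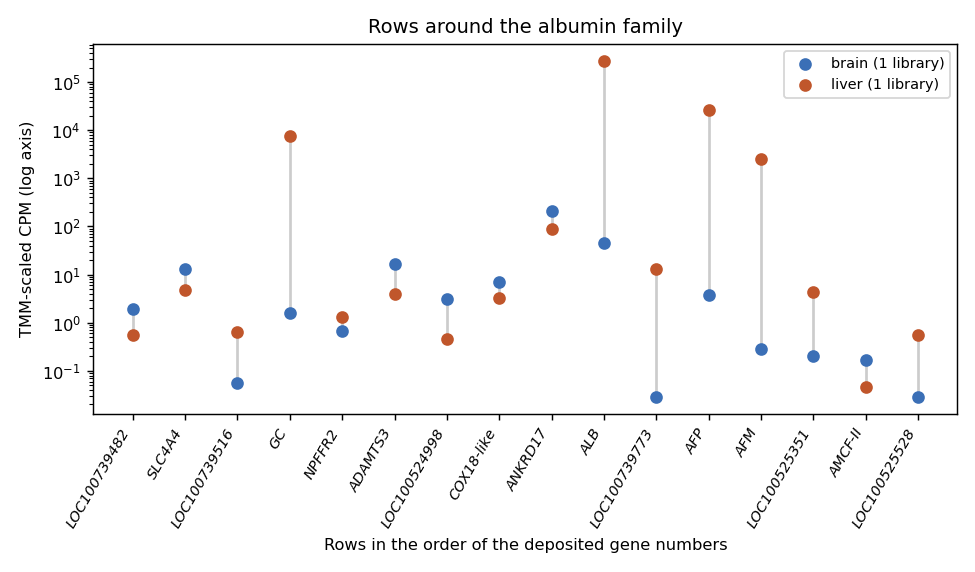
TMM-scaled CPM (log axis) of 16 consecutive rows in the order of the deposited gene numbers, 1 point per library. GC, ALB, AFP and AFM stand at 2555 CPM or more in liver, whereas ANKRD17, the highest of the other rows there, is at 88.6 CPM.

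Of the thyroid hormone carriers other than ALB, TTR had 34150 liver counts, 1580 CPM and a share of 0.108% (0.107 to 0.109). Brain held 15 TTR counts, or 0.429 CPM, and the difference was 3681-fold (2232 to 6578). The row just before TTR, LOC100625914, is listed as a hypothetical protein and had 31373 liver and 15 brain counts, close to those of TTR. In the Sscrofa11.1 gene table DSG2 and TTR are neighbours with no such gene between them. Whether both rows hold reads of 1 gene was not tested. Adding them would bring the TTR share of liver counts to 0.207%, from 0.108%, and the difference to 3532-fold. SERPINA7 had 1277 liver counts (59.1 CPM, 0.00403% of the library) and 0 in brain. With the brain count set to a floor of 3, it was 688-fold higher in liver.

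Levels of other choroid plexus genes in brain were mixed. Of 9 such genes with a row, 5 passed 1 CPM, 1 passed 4-fold toward liver and 0 toward brain. These are small counts beside 11.3% and 14.6% of all genes. The summed level of the 9 genes was 65.7 CPM in brain and 291 in liver. In brain AQP1, a water channel, was at 0 counts, OTX2, a transcription factor, at 3, CLIC6, a chloride channel gene, at 12, SLC4A5, a bicarbonate transporter, at 17 and KL, which encodes Klotho, at 36, all chosen after their values were seen. Liver held 0 counts of SLC4A5 and 4 of KL. ENPP2, which encodes autotaxin and is also made by oligodendrocytes, had 1202 brain and 2491 liver counts (log2 ratio -1.72). SLC13A4, a sulfate transporter, had 335 and 93 (0.997), and PRLR, the prolactin receptor, had 20 and 68 (-1.40). The folate receptor gene FOLR1, with 669 brain and 3623 liver counts, was higher in liver (-3.07), and just below 4-fold with plain library size (-1.98). The part of choroid plexus content in the TTR level was not tested.

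Genes that act on thyroid hormone after its transport were divided between the tissues. Of 9 with a row, 7 passed 1 CPM, 3 of them past 4-fold toward brain and 1 toward liver, with backgrounds of 14.6% and 11.3%. The median log2 ratio was 1.94. DIO1, the deiodinase typical of liver, had 20 brain and 3696 liver counts and was 299-fold higher in liver (193 to 490). CRYM, a cytosolic thyroid hormone binding protein, had 4751 and 334 and was 8.80-fold higher in brain (7.87 to 9.86). Of the others past 4-fold in brain, both chosen after their values were seen, SLCO1C1, a thyroxine transporter of brain vessels, was 196-fold higher (99.3 to 454). DIO2, which activates thyroxine in brain, had 236 brain counts and 3 in liver, a 48.6-fold ratio (16.4 to 238). The receptor genes THRA and THRB had log2 ratios of 1.94 and 0.94, and with plain library size both were past 4-fold at 3.02 and 2.01.

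RBP4 differed from the other carriers in its brain count relative to its liver count. Liver held 100968 RBP4 counts (4673 CPM, rank 33, 0.318% of the library) and brain 3013 (86.2 CPM, rank 1425). The difference was 54.2-fold (52.3 to 56.2), with a log2 ratio of -5.74. With a pseudocount of 1 this was the smallest in size among the 9 carriers, but with 5 SERPINA7 (-3.68) and SERPINA6 (-4.56) were smaller than RBP4 (-5.68). RBP4 also had more brain counts than ALB, although ALB had 59.1 times its liver counts. It was 1 of 4 carriers above 1 CPM in brain, with ALB, AFP and GC.

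The genes of retinoid uptake, storage and signalling varied widely. Of 21 with a row, 19 passed 1 CPM, 7 passed 4-fold toward liver and 2 toward brain, and the median log2 ratio was -1.23. Over all genes the shares were 11.3% and 14.6%, so the count toward brain was not above the background. With plain library size 5 passed toward liver and 3 toward brain. RDH16, a retinol dehydrogenase, had 7 brain and 8034 liver counts (-8.28), RBP5, a cellular retinol binding protein, 7 and 4006 (-7.28), and ALDH1A1, which makes retinoic acid, 126 and 8299 (-6.39). LRAT, the enzyme that esterifies retinol for storage and chosen after its value was seen, had 13 and 372 (-3.73). The 2 toward brain were CRABP2, a retinoic acid binding protein, and RXRG, a retinoid X receptor. CRABP2 had 754 brain counts and 0 in liver, or 155-fold higher with liver set to a floor of 3 counts. RXRG had 256 brain counts and 1 in liver, a 158-fold ratio with a wide interval (28.2 to 6277). STRA6, the membrane receptor of RBP4 and chosen after its value was seen, had 75 brain counts and 1 in liver, a 46.4-fold ratio (8.07 to 1856). Its log2 ratio was 1.59, and past 4-fold under 2 other scalings, plain library size (2.01) and the total that leaves out the 50 highest genes (2.28).

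The genes of vitamin D activation, uptake and response belong with GC. Of 10 with a row, 7 passed 1 CPM, 2 past 4-fold toward liver and 0 toward brain (median log2 ratio -0.82), against 11.3% and 14.6% of all genes. CYP27A1, a sterol 27-hydroxylase that can also hydroxylate vitamin D, had 50 brain and 4394 liver counts (-6.39). PDIA3, an endoplasmic reticulum chaperone also described as a membrane vitamin D binding protein, had 10759 and 73017 (-3.45). CYP2R1, the main vitamin D 25-hydroxylase, had 185 and 247 (-0.98), and DAB2, an endocytic adaptor, 1252 and 1380 (-0.82, and 0.27 with plain library size). The vitamin D receptor gene VDR, with 24 and 6 counts, and LRP2, the uptake receptor of the GC protein, with 34 and 1, stayed under 1 CPM in both libraries, both chosen after their values were seen.

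SERPINA6 had 2677 liver counts (124 CPM, 0.00844% of the library) and 16 in brain, a 271-fold difference (166 to 474). Of 11 other genes of steroid transport and action with a row, 8 passed 1 CPM, 2 past 4-fold toward brain and 1 toward liver (median log2 ratio 0.30), beside 14.6% and 11.3% of all genes. HSD11B1, which regenerates active cortisol, had 1408 brain and 20462 liver counts and was 23.5-fold higher in liver (22.3 to 24.8). The mineralocorticoid receptor gene NR3C2 was 8.40-fold higher in brain (6.16 to 11.7), and the other gene past 4-fold there was SRD5A1, a steroid 5-alpha-reductase, at 3.02 on the log2 scale (chosen after its value was seen). The glucocorticoid receptor gene NR3C1 had a log2 ratio of -0.33 (0.73 with plain library size), while FKBP5, a chaperone of that receptor, was at -1.84. SHBG, the carrier of sex steroids and chosen after its value was seen, had 8 brain and 2 liver counts.

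VTN had 34723 liver counts (1607 CPM, 0.109% of the library) and 18 in brain, a 3119-fold difference (1973 to 5264). A1BG had 11581 liver counts (536 CPM, 0.0365%) and 11 in brain, a 1702-fold difference (951 to 3411). Its row is LOC100516980, whose product is named alpha-1B-glycoprotein-like. All 9 genes of vitronectin partners with a row passed 1 CPM, 2 past 4-fold toward liver and 1 toward brain (median log2 ratio -0.999), small counts beside 11.3% and 14.6% of all genes. With plain library size 1 passed toward liver. The integrin gene ITGB1 was at -2.35, and below 4-fold with plain library size (-1.25), while ITGB8 was at 2.56 in the direction of brain. The vitronectin receptor subunits ITGAV and ITGB3 were at -0.74 and -0.13, and above 0 with plain library size (0.28 and 0.90). Pericytes, cells of small vessels, are known to express VTN in mouse brain. All 9 genes of a mixed list of pericyte and endothelial genes passed 1 CPM, with a summed level of 105 CPM in brain and 199 in liver. RGS5 (2.85) and CLDN5 (2.74) passed 4-fold toward brain, ANPEP (-5.65) toward liver, and MCAM was at 0.47. Pericyte genes other than RGS5, chosen after their values were seen, lay on both sides of 0. CSPG4 was at 0.56, whereas PDGFRB (-0.50), KCNJ8 (-0.75) and ABCC9 (-1.52) were below 0. PDGFRB and KCNJ8 were above 0 with plain library size (0.40 and 0.17).

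Among genes of albumin recycling and uptake, 5 had a row, and 2 passed 4-fold toward liver and 0 toward brain (median log2 ratio -0.52). These are small counts beside 11.3% and 14.6% of all genes. With plain library size 1 passed toward liver and 1 toward brain. FCGRT, the receptor that salvages albumin from breakdown, had 473 brain and 4304 liver counts and was 14.7-fold higher in liver (13.4 to 16.2). CALR, an endoplasmic reticulum chaperone, had a log2 ratio of -2.05 (-0.94 with plain library size). SPARC, an albumin-binding matrix protein, had 1.75 (2.68 with that scaling). HNRNPU, which encodes an RNA-binding protein, had -0.52 (0.58 with that scaling).

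Most transcription factors known to act on ALB and AFP were higher in liver. Of 16 with a row, 15 passed 1 CPM, 10 past 4-fold toward liver and 0 toward brain (median log2 ratio -4.19), against 11.3% and 14.6% of all genes. Those toward liver included NR5A2 (-5.63), with 45 brain and 2421 liver counts, CEBPD (-4.30) and CEBPA (-4.19). NR2F1, an orphan nuclear receptor, was at 1.98, and past 4-fold in brain with plain library size (3.07). HNF4A, a hepatocyte factor chosen after its value was seen, had 7 and 2174 counts (-6.40). ZHX2, a repressor of AFP in mouse liver, had 211 and 110 counts (0.21), and DBP, a factor that binds the D box of the ALB promoter, had 193 and 23 (1.66, and 2.40 with plain library size), both likewise chosen. Beside AFP, 5 other genes of fetal and neonatal liver had a row. Of these, 3 passed 1 CPM, all past 4-fold toward liver, against 11.3% of all genes. The 3 were IGF2, a fetal growth factor (-6.44), GPC3, an oncofetal proteoglycan (-6.48), and TFRC, the transferrin receptor (-3.70). The other 2, DLK1 and the embryonic globin gene HBE1, both likewise chosen, stayed under 1 CPM. DLK1 was at -0.09, and HBE1 had 4 brain and 8 liver counts.

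**Figure D3:**
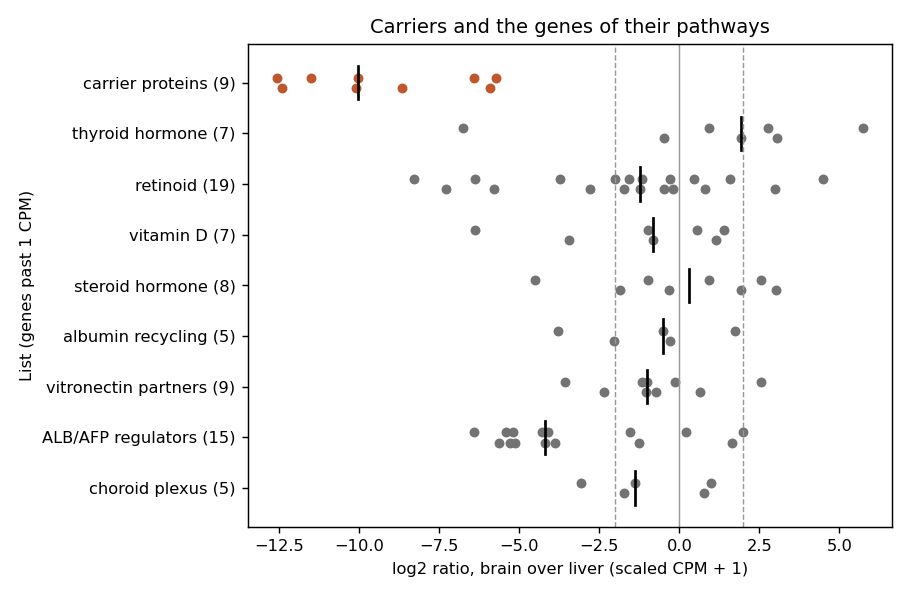
Log2 ratio of brain over liver (scaled CPM with a pseudocount of 1) for the 9 carrier genes and for 8 lists of related genes, 1 point per gene past 1 CPM, with the number of genes in brackets. Black bars are medians and dashed lines mark 4-fold. The carriers lie between -12.56 and -5.74, whereas the receptor and enzyme lists span both sides of 0.

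Brain reads of the carriers were also set against their liver reads. The brain count of ALB was 0.0262% of its liver count (exact 95% interval 0.0249 to 0.0275). AFP stood at 0.0233%, GC at 0.0338% and TTR at 0.0439%, with intervals that overlapped that of ALB, and so did the interval of SERPINA7, from 0 to 0.289%. A further 4 of the 8 lay wholly above ALB. VTN stood at 0.0518% (0.0307 to 0.0819), A1BG at 0.0950% (0.0474 to 0.170), SERPINA6 at 0.598% (0.341 to 0.972) and RBP4 at 2.98% (2.88 to 3.09). All 25 other secreted plasma protein genes with a row passed 4-fold toward liver, against 11.3% of all genes. Of these, 15 lay wholly above ALB, 10 overlapped it and 0 lay below, with a median of 0.0461%. AHSG, also listed, had no row under that symbol and was not counted. TF, the transferrin gene, was at 0.0473%, HP, the haptoglobin gene, at 0.0359%, and FGA, a fibrinogen chain, at 0.0286%. APOA1, the main apolipoprotein of HDL, was at 3.40%, above RBP4. In the other direction, the liver counts of STMN2 and NEFM, both neuronal, were 0.0141% and 0.0115% of their brain counts. The part of reads passing between libraries or tissue pieces in these values was not tested.

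**Figure D4:**
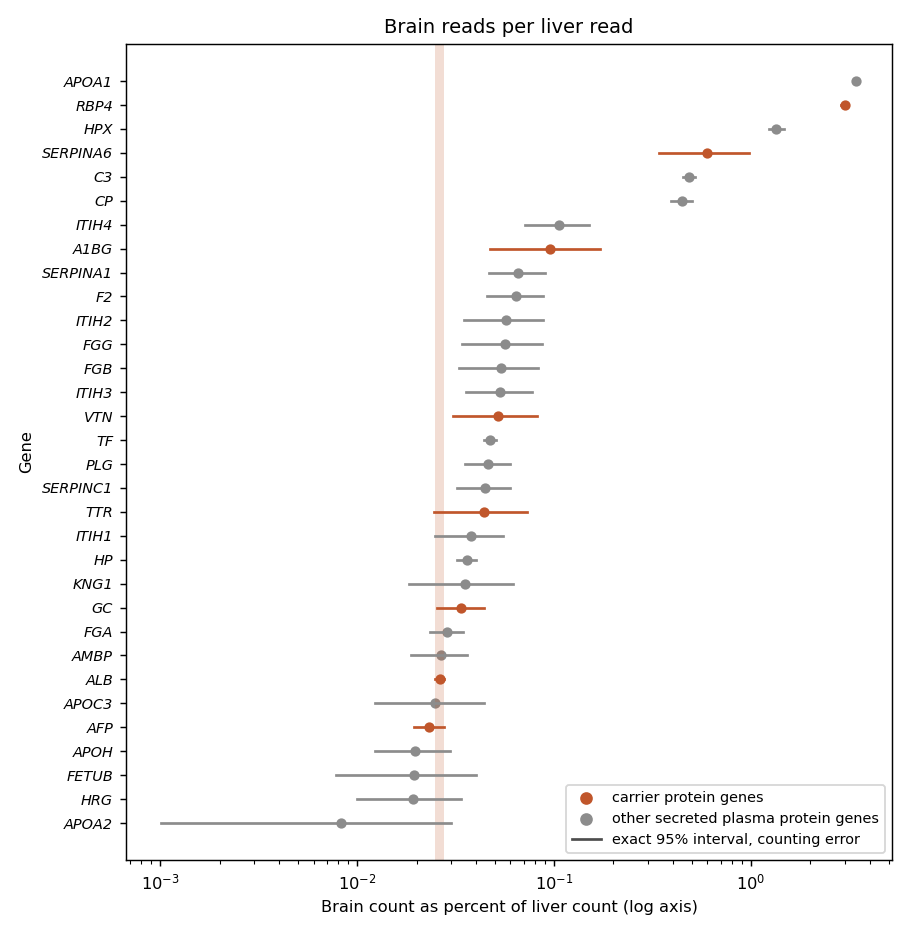
Brain count as percent of liver count (log axis) for the 8 carrier genes and 24 other plasma protein genes with brain reads, with exact 95% intervals for counting error. The shaded band is the interval of ALB, 0.0249 to 0.0275%. AFP, GC and TTR overlap it, while SERPINA6 and RBP4 lie at 0.598% and 2.98%.

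The genes nearest to each carrier were found by the distance between log2 CPM, with a pseudocount of 1, over the 2 libraries. The nearest to TTR was the kininogen gene KNG1, with 12 brain and 34044 liver counts (distance 0.09). The inhibitor heavy chain gene ITIH2 was nearest to VTN (0.06), the antiplasmin gene SERPINF2 to A1BG (0.06) and SLC27A2, which activates very-long-chain fatty acids, to SERPINA6 (0.06). ADTRP, a regulator of tissue factor pathway inhibitor, was nearest to SERPINA7 (0.09). FETUIN was nearest to AFP (0.19), FN1, the fibronectin gene, to RBP4 (0.22), and PZP, an alpha-macroglobulin gene, to GC (0.24). FETUIN had 136 brain and 496425 liver counts and was not among the plasma protein genes counted above. ALB had no close neighbour, and the nearest, TF, was 2.02 away with 1714137 liver counts. With 2 libraries such a distance only says that levels were alike in both.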

How the data were processed

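The authors deposited 1 table of raw counts per gene for both libraries. The unit was inferred from whole numbers with unequal totals. TopHat and the build Sscrofa10.2 (susScr3) are named in the submitters' processing notes. For the counting program and the use of strand, the answer is not given in the sources used here, so overlapping genes and near-identical copies may share reads. The deposited length column was read as a genomic span and not used, so levels of different genes were not compared per length.

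Of 21817 rows, 7816 were named from the table and 7009 by gene number, accession, synonym or product, with RefSeq Sscrofa11.1 used for names and order. Rows of 1 symbol were summed. TMM factors (edgeR 4.0.16, R 4.3.3) were 1.47 for brain and 0.681 for liver, so 1 CPM equals 34.9 and 21.6 counts. A gene entered if either library reached 1 CPM, and was called at 4-fold or more. No test was run. Folds were computed without the pseudocount, with exact conditional binomial intervals at 95%, and shares have Wilson intervals. Genes with 0 counts were set to a floor of 3. The calling step was run on simulated counts, drawn from 1 averaged profile for both libraries with some genes altered. The simulation lacked the difference in composition between brain and liver, so it cannot show how the scaling performs here. The carriers and the 14 gene lists were chosen with earlier results of these data known. Named genes were the carriers, the nearest gene to each, up to 4 genes of each list by mean level and any past 4-fold against the list's median, a few of which are not reported here. Other scalings, pseudocounts, filters, folds and totals were tried.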

Additional observations from a re-analysis of the deposited data

How the results depend on the processing

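All 9 carriers stayed past the fold called, toward liver, under each of the 10 settings tried for that count. With plain library size every fold toward liver was smaller by the ratio of the TMM factors, 2.16, and the median log2 ratio of all genes was 0.98. The median of the carriers was -9.28 with plain library size, -11.35 with a pseudocount of 0.1 and -8.19 with 5, since few brain reads make it depend on the pseudocount. The log2 ratio of SERPINA7 ran from -9.21 to -3.68. The carriers' share of liver counts was 23.0% without mitochondrially encoded genes, 23.1% over named rows, and 3.54% for the other 8 in a total without ALB. With the row beside TTR added, a setting chosen after seeing the data, its log2 ratio was -10.67.

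Counts of list genes past 4-fold are small and moved by over 1.5 times in these cases. With plain library size 5 thyroid hormone genes, 1 vitamin D gene, 1 albumin recycling gene and 2 regulators were past 4-fold in brain, and in liver 1 albumin recycling gene, 1 vitronectin partner and 0 choroid plexus genes. Without the 50 highest genes it was 1 albumin recycling gene and 2 regulators in brain, and 1 albumin recycling gene and 1 vitronectin partner in liver. A pseudocount of 0.1 gave 1 vitamin D gene and 1 regulator in brain and 2 choroid plexus genes in liver. A pseudocount of 5 gave 1 retinoid, 0 steroid and 1 pericyte and vessel gene and 0 vitronectin partners in brain. At 2-fold there were 11 retinoid, 2 steroid, 3 choroid plexus and 2 pericyte and vessel genes and 4 vitronectin partners in liver, and 2 vitamin D genes, 1 albumin recycling gene and 2 regulators in brain. At 8-fold there were 1 retinoid, 1 steroid and 0 pericyte and vessel genes and 0 vitronectin partners in brain, and 1 albumin recycling gene and 1 vitronectin partner in liver. These shifts follow from the scaling, pseudocount or fold itself.

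No paired analysis was possible because each tissue has 1 library. A brain count under 20, as for TTR, SERPINA6, VTN and A1BG, leaves intervals of more than 2-fold from end to end.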

Other observations

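The rows standing directly beside the carriers in the table's gene order were also read, a choice made after the data were seen. Of 16 such rows that are not carriers themselves, 12 passed 1 CPM, 2 passed 4-fold toward liver and 1 toward brain. These are small counts, near the shares of 11.3% and 14.6% over all genes. The 2 in liver were AFM and LOC100625914, the row before TTR. The 1 in brain was PPP4R4, a phosphatase subunit gene beside SERPINA6, with 191 brain and 5 liver counts (log2 ratio 2.39). SARM1, beside VTN, had 183 and 72 (0.53), and B4GALT6, beside TTR, had 417 and 62 (1.74).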
